A study of Homo sapiens with 18 samples.

Results

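The genes that encode the proteins of the cytosolic ribosome were followed across 6 groups of VCaP cells, a human prostate cancer line that carries the TMPRSS2-ERG fusion and overexpresses the ETS transcription factor ERG. Members were the genes whose symbols name a protein of the small (RPS, RPSA) or large (RPL, RPLP) subunit and that had at least 10 counts in every library. All 77 genes with such a symbol met the minimum, of 22034 genes in the table, and all 77 were among the 14164 genes tested. They comprised 31 small-subunit and 46 large-subunit genes, the latter including the 3 genes of the P stalk.

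Every group was 3 libraries of VCaP cells grown in DMEM with GlutaMAX and 10% FBS. VCaP-shERG cells, which carry an ERG hairpin under the tetracycline-inducible pLKO-Tet-on-puro vector, were given DMSO (shERG DMSO) or 1 µg/mL doxycycline (shERG Dox), and the labels give no duration for either. VCaP cells with no named hairpin were given DMSO with no stated time (DMSO) or 50 µM PBITE-1, a small molecule described by the study as a ligand of the PNT domain of ERG, for 4, 8 or 12 h. No doxycycline-treated cells without the ERG hairpin were analysed here, so doxycycline itself and the hairpin cannot be told apart. The 3 PBITE-1 times share the same DMSO libraries.

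ERG itself was checked first. It averaged 448 ± 14 CPM (SD, n = 3) in shERG DMSO and 164 ± 4.6 CPM in shERG Dox, and 289 ± 8.9 CPM in DMSO. With PBITE-1 it averaged 180 ± 3.4 CPM at 4 h, 93.8 ± 2.9 at 8 h and 97.2 ± 7.7 at 12 h. All 12 listed luminal prostate markers were measured, and their summed level lay between 12095 and 12361 CPM in shERG DMSO, 8954 and 9173 in shERG Dox, 9336 and 9494 in DMSO, and 4046 and 4755 at 12 h. Of 11 markers of basal, stromal, endothelial and immune cells 10 were in the table, CD3E, COL1A2, DCN and PTPRC at or near 0 in every library, and the summed level of the list did not exceed 13.4 CPM. Of the luminal list 5 genes were called lower and 6 higher with doxycycline and 9 and 2 at 12 h of PBITE-1. Of 6 tested genes of the other list 0 were lower and 2 higher with doxycycline, and 2 and 3 at 12 h. Of all tested genes 35.3% were lower and 35.1% higher with doxycycline, and 39.4% each at 12 h. COL1A1 had 1.41, 0.88 and 1.80 CPM in shERG DMSO and 5.67, 5.99 and 5.19 in shERG Dox. The marker lists moved with the treatments, and their part in the ribosomal protein results was not tested. Libraries held 11308600 to 17483423 counts, of which the ribosomal protein genes took 4.84% to 6.81%, so counting error is small for nearly every member.

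Ribosomal proteins are needed in nearly equal numbers and are assembled with ribosomal RNA in the nucleolus. In vertebrates most of their mRNAs begin with a run of pyrimidines, the 5′ terminal oligopyrimidine (TOP) tract, which is bound by LARP1 and through which mTOR controls their translation and stability. Many also carry small nucleolar RNAs (snoRNAs) in their introns. Unassembled RPL5 and RPL11 bind MDM2, the ubiquitin ligase of p53, and phosphorylation of RPS6 is a standard readout of mTOR signalling.

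The start of these genes is shown because most members have a run of pyrimidines there. Most other TOP translation genes share it. RefSeq promoter windows on GRCh38.p14 were found for 62 of 77 members. Each line gives 10 bases before the annotated start and 20 from it on, 5′ to 3′ on the gene's strand, with the longest run of C and T that reaches within 3 bases of the start, on either side, in capitals.
RPS6, chr9:19380217-19380246, minus strand: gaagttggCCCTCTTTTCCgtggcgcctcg
RPS9, chr19:54200848-54200877, plus strand: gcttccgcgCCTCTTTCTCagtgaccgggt
RPS12, chr6:132814559-132814588, plus strand: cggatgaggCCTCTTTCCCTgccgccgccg
RPS26, chr12:56041908-56041937, plus strand: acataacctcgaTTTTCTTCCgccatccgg
RPS27A, chr2:55231893-55231922, plus strand: agtgacaCacaagacccagactcttcccta
RPLP0, chr12:120201092-120201121, minus strand: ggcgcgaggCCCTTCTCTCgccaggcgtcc
RPLP1, chr15:69452808-69452837, plus strand: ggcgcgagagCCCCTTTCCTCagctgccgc
RPL6, chr12:112411423-112411452, minus strand: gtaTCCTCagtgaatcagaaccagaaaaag
RPL11, chr1:23691769-23691798, plus strand: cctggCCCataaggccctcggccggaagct
RPL22, chr1:6199576-6199605, minus strand: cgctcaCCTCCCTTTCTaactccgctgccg
RPL35, chr9:124861938-124861967, minus strand: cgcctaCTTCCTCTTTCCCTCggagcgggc
Such a run of at least 6 pyrimidines was present in 47 of 62 members (75.8%) and in 18.8% of all 27305 promoters. It was present in 14 of 16 other TOP translation genes (87.5%), in 9 of 68 mitochondrial ribosomal protein genes (13.2%) and in 4 of 30 genes of RNA polymerase I and ribosomal RNA processing (13.3%). The longest run among members was 25 bases, and those of RPS27A and RPL11, which end before the annotated start, had 1 and 3 bases. The annotated start can differ from the start these cells use.

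The members did not share 1 level. Per kilobase of the transcript used for length, RPS18 stood highest in DMSO-treated VCaP-shERG cells at 4089 CPM per kb. RPLP0 followed at 3777 and RPLP1 at 3737. For each gene the shortest coding transcript with a principal coding length was used. Longer transcripts would lower these values, and the order was not checked with them. RPS18 was picked after the levels were seen. Annotated pseudogenes of the members, 522 in the table, together held 0.0519% to 0.0784% of the counts; for RPL41 they summed to 17.4% of the gene's own counts and for RPS2 to 5.6%, so the counts of those members are uncertain to that extent.

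With doxycycline in VCaP-shERG cells the ribosomal protein genes fell together. The 77 genes together took 6.78 ± 0.054% of all counts in shERG DMSO (SD, n = 3) and 4.86 ± 0.032% in shERG Dox. All 77 were called lower and 0 higher by limma-voom at an adjusted p under 0.05, where 35.3% of all tested genes were called lower and 35.1% higher. At an unadjusted p under 0.05 there were also 0 higher, and edgeR and DESeq2 both gave 77 lower and 0 higher. The median log2 fold change was -0.72, 60.5% of the control level, against 0.02 for the other tested genes, and in all 77 genes the 3 treated libraries lay below the 3 controls, as in 36.4% of all tested genes. 1 member fell past a log2 fold change of 1, where 7.19% of all tested genes did.

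**Figure D1:**
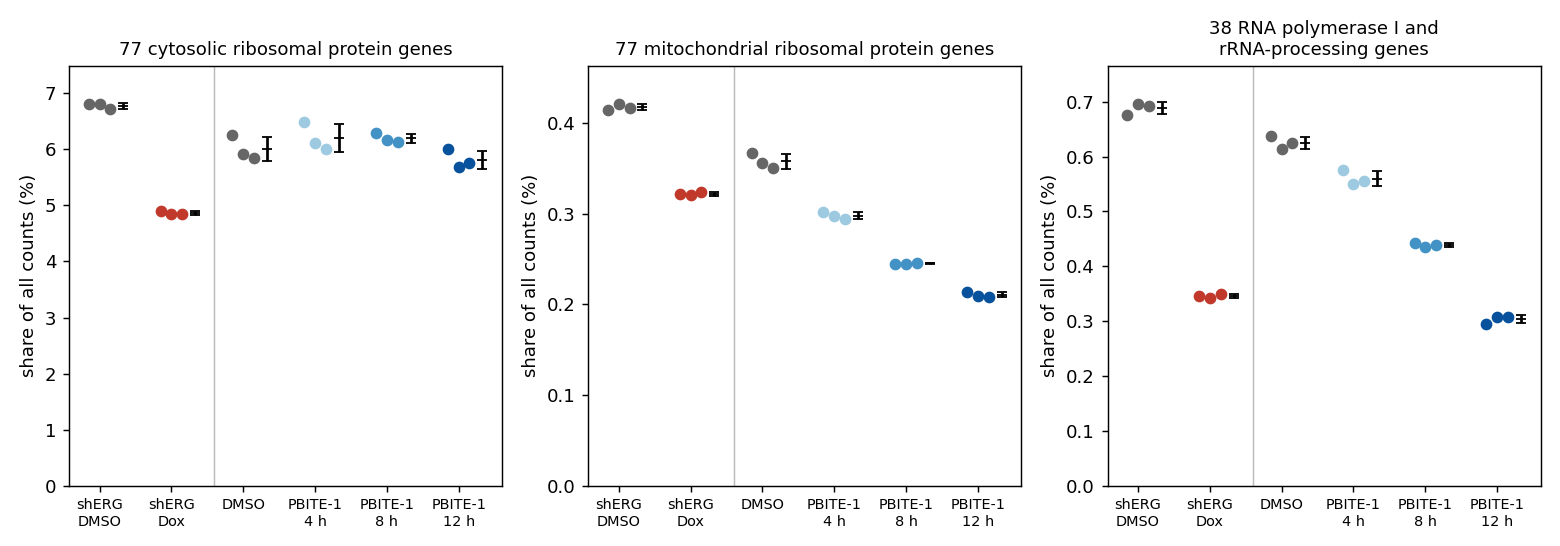
Share of all counts (y axis, %) in each of the 18 libraries, for the cytosolic ribosomal protein genes, the mitochondrial ribosomal protein genes, and genes of RNA polymerase I and ribosomal RNA processing. Points are libraries and bars are mean ± SD of 3; the cytosolic share is 6.78% and 4.86% in shERG DMSO and Dox but 6.01% and 5.81% in DMSO and at 12 h of PBITE-1, while the other 2 shares fall in both experiments.

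RPS2, a small-subunit protein near the mRNA channel, had 1822, 1687 and 1740 CPM in shERG DMSO and 959, 892 and 873 CPM in shERG Dox. The control libraries all lay far above the treated ones, with no overlap. Its log2 fold change of -0.94 (SE 0.03, limma-voom adjusted p = 2.51e-20) was among the largest falls. RPS3A had 1362, 1415 and 1389 CPM against 709, 729 and 793, a log2 fold change of -0.90 (SE 0.03). RPS6 went from 2276, 2337 and 2281 CPM to 1214, 1247 and 1289 CPM, a log2 fold change of -0.88 (SE 0.02, limma-voom adjusted p = 1.7e-22). Neither gene's groups overlapped.

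RPL5 and RPL11, named above for binding MDM2, fell as all 77 members did. RPL5 had 1218, 1224 and 1196 CPM in shERG DMSO and 629, 654 and 667 CPM in shERG Dox, and it changed by -0.90 on the log2 scale (SE 0.02). RPL11 had 905, 884 and 869 CPM against 570, 553 and 553 CPM, a log2 fold change of -0.66 (SE 0.02). Both were lower in every treated library, and the difference between them was not tested. MDM2 mRNA rose by 0.24 on the log2 scale (SE 0.04, limma-voom adjusted p = 1.1e-06).

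Other members with known roles fell by intermediate amounts. RPLP0, the base of the P stalk that recruits elongation factors, had 2798, 2688 and 2673 CPM against 1638, 1566 and 1541 CPM, a log2 fold change of -0.78 (SE 0.02). RPSA, the small-subunit protein also called the laminin receptor, changed by -0.82 (SE 0.03), and RPS19, the gene most often mutated in Diamond-Blackfan anaemia, by -0.64 (SE 0.03). RPS27A, which is made as a fusion with ubiquitin, changed by -0.74 (SE 0.03), RPL22 by -0.70 (SE 0.02) and RPL41, the smallest ribosomal protein, by -0.85 (SE 0.03). RPL3, at the peptidyl transferase centre, changed by -0.52 (SE 0.02). All of these are log2 fold changes past the adjusted threshold, and none of their groups overlapped.

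The smallest falls were those of RPS26 and RPS27. RPS26, picked after its values were seen, had 456, 446 and 451 CPM against 352, 331 and 316 CPM, a log2 fold change of -0.44 (SE 0.03, limma-voom adjusted p = 5.39e-12). RPS27 had 669, 640 and 644 CPM against 498, 476 and 464 CPM, also a log2 fold change of -0.44 (SE 0.03). Even for these the lowest control library was above the highest treated one.

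The median log2 fold change was -0.74 for the 31 small-subunit and -0.72 for the 46 large-subunit genes. The middle 50% of all 77 members lay between -0.82 and -0.66. Members that host snoRNAs in their introns (28 genes) had a median of -0.75 and the other 49 one of -0.72. The 47 members with a pyrimidine run at the start had a median of -0.74 and the 15 without -0.71. These medians are descriptions of fixed lists and carry no test.

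All values are relative to the other RNAs of a library, and in bulk samples fewer cells of a type and less RNA per cell cannot be told apart. With library size alone in place of TMM scaling, the median of all tested genes moved to 0.28 and that of the members to -0.46 on the log2 scale, and all 77 were still called lower.

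After PBITE-1 the same genes stayed close to the DMSO level and went in both directions. The members' share of counts was 6.01 ± 0.22% in DMSO (SD, n = 3). The treated libraries held 6.20 ± 0.25% at 4 h, 6.20 ± 0.080% at 8 h and 5.81 ± 0.16% at 12 h. The lowest and highest DMSO libraries (5.85% and 6.25%) overlapped with each of the 3 times. At each time 76 of the 77 members stayed within a log2 fold change of 1, while 2.99%, 8.86% and 15.4% of all tested genes were called lower past that size at 4, 8 and 12 h.

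**Figure D2:**
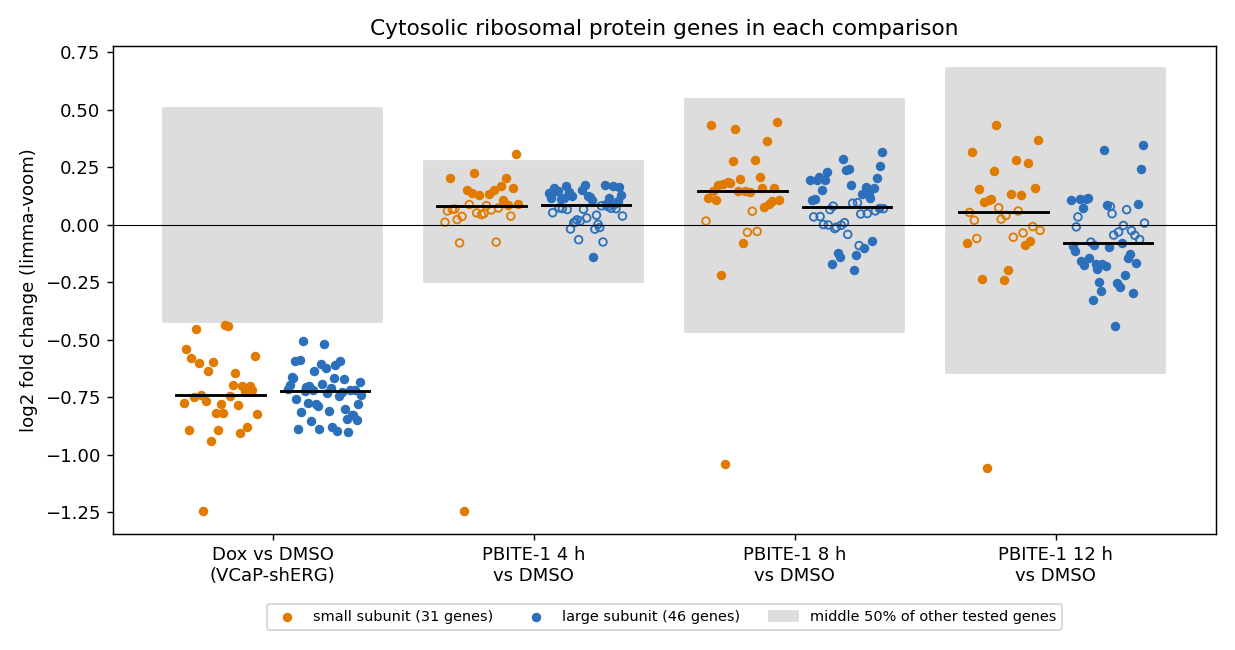
Log2 fold change (y axis) of each member in the doxycycline comparison and at 4, 8 and 12 h of PBITE-1, small-subunit genes in orange and large-subunit genes in blue. Filled points passed an adjusted p of 0.05, black lines are medians and grey boxes hold the middle 50% of the other tested genes; all 77 members lie below 0 with doxycycline, and the medians are 0.08, 0.11 and -0.03 after PBITE-1.

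At 4 h 37 members were higher and 2 lower, RPL35 among them, by limma-voom, where 26.4% of all tested genes were higher and 24.7% lower. Their median log2 fold change was 0.08, and 54 of 77 (70.1%) had overlapping groups, against 43.6% of all tested genes. At 8 h 45 were higher and 10 lower, against 35.9% and 37% of all tested genes, with a median of 0.11, and 26 (33.8%) had overlapping groups, against 25.4%. That median was 0.04 with library size alone. At 12 h 23 were higher and 30 lower, against 39.4% and 39.4%, with a median of -0.03, and 36 (46.8%) had overlapping groups, against 21.4%. The 4 h count rests on small differences: with library size alone it was 19 higher and 5 lower. Without PBITE-1 4 h replicate 1, 4 members were lower at 4 h.

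Read across time, 18 members (23.4%) were called higher at all 3 times, among them RPL3, RPLP0, RPLP1, RPS2, RPS9, RPS12, RPS20 and RPS27, and so were 21.2% of all tested genes. Lower at all 3 were 2 members, RPL35 among them, and 18.3% of all tested genes. A further 13 members (16.9%), RPL11 among them, were called lower at 12 h and not called before, as were 6.74% of all tested genes. Another 11 (14.3%), including RPL5, RPSA and RPS3A, were called higher at 4 and 8 h and not called at 12 h, against 1.83%. RPS27A and 3 others were not called at any time, as were 10.3% of all tested genes.

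RPS9, an early-binding protein of the small subunit, showed the largest rise of the members at 4 and 8 h. It had 468, 426 and 426 CPM in DMSO, 582, 526 and 525 CPM at 4 h, 601, 589 and 605 CPM at 8 h and 579, 561 and 562 CPM at 12 h. Every treated library was above every DMSO library. Its log2 fold changes were 0.31, 0.45 and 0.37 (SE 0.04 each), with a limma-voom adjusted p of 3.12e-13 at 8 h.

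RPS20 rose through 8 h and then held. It had 609, 574 and 567 CPM in DMSO, 714, 673 and 661 CPM at 4 h, 803, 776 and 754 CPM at 8 h and 801, 777 and 784 CPM at 12 h. No treated library overlapped with DMSO, and the 8 and 12 h libraries overlapped each other. The log2 fold change was 0.43 (SE 0.03, limma-voom adjusted p = 2.27e-14) at 12 h.

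RPS12 had 341, 303 and 314 CPM in DMSO, 385, 367 and 349 at 4 h, 434, 433 and 422 at 8 h and 399, 391 and 399 at 12 h. It peaked at 8 h, with log2 fold changes of 0.20, 0.43 and 0.31 (SE 0.04 each) at the 3 times. RPS2 changed by 0.14, 0.28 and 0.23 on the log2 scale (SE 0.04 each), and its DMSO libraries, 1359, 1366 and 1262 CPM, lay below all 9 treated ones.

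The P stalk binds the translation factors of the GTPase family. RPLP1 had 786, 733 and 678 CPM in DMSO, 921, 925 and 874 at 8 h and 973, 897 and 920 at 12 h, with log2 fold changes of 0.31 and 0.35 (SE 0.04 each). RPLP0 had 2222, 2212 and 2068 CPM in DMSO, 2507, 2392 and 2384 at 4 h, 2602, 2649 and 2501 at 8 h and 2603, 2526 and 2550 at 12 h. Its log2 fold changes were 0.16, 0.26 and 0.24 (SE 0.03 each), and no treated library overlapped with DMSO. RPLP2, the partner of RPLP1, did not pass the test at any time.

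**Figure D3:**
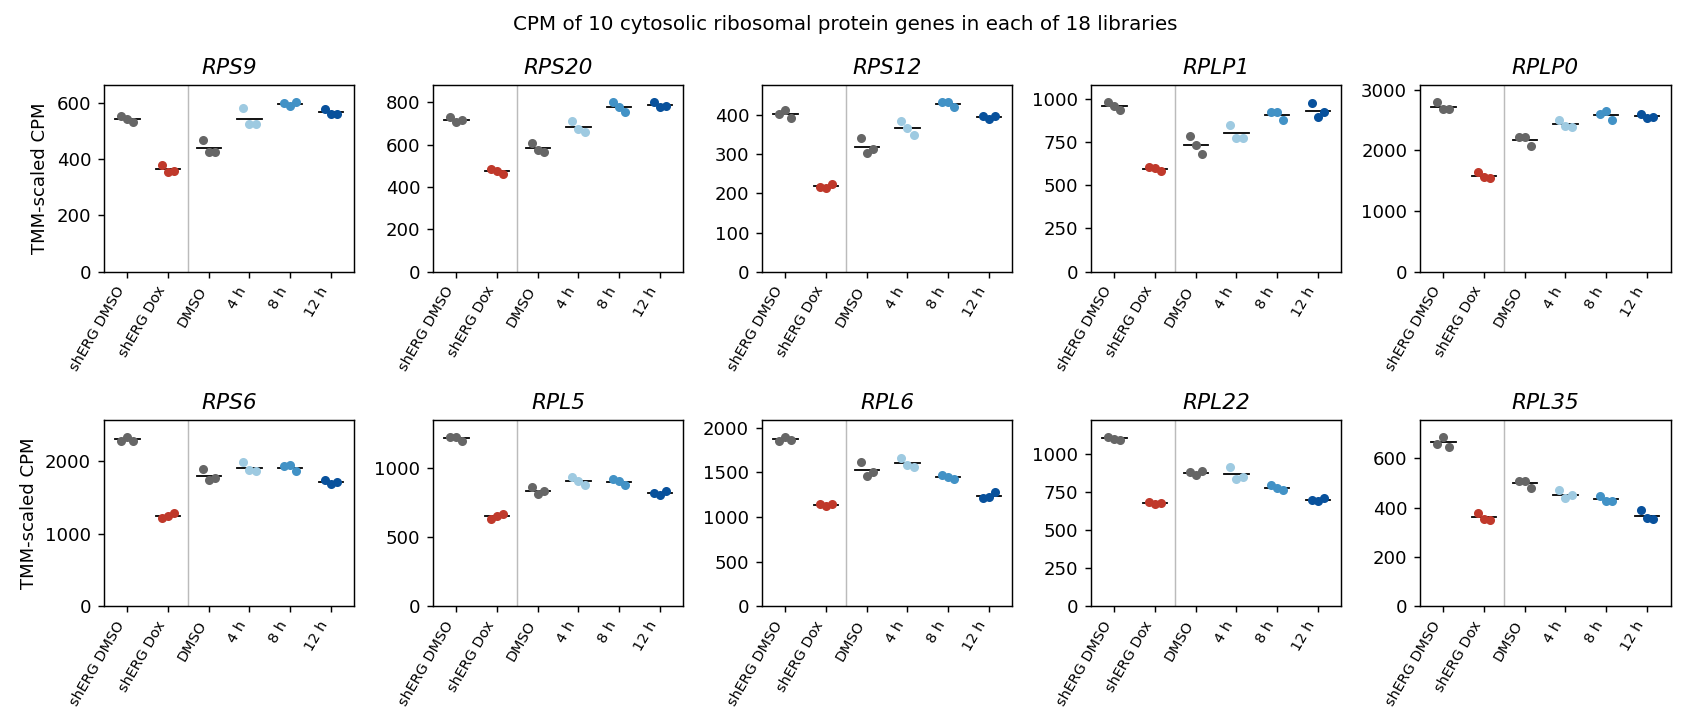
TMM-scaled CPM (y axis) of 10 members in each library of the 6 groups, with the group mean as a line. In all 10 the shERG Dox libraries lie below shERG DMSO, while after PBITE-1 RPS9, RPS20, RPS12, RPLP1 and RPLP0 lie above DMSO at 8 and 12 h and RPL6, RPL22 and RPL35 lie below it at 12 h.

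RPL35, which sits at the exit of the nascent chain tunnel, fell at each time. It had 509, 509 and 480 CPM in DMSO, 471, 438 and 450 at 4 h, 447, 429 and 427 at 8 h and 391, 356 and 356 at 12 h. Every treated library was below every DMSO library, and the log2 fold changes were -0.14, -0.20 and -0.44 (SE 0.04 each; limma-voom adjusted p = 3.01e-13 at 12 h).

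RPL22, a large-subunit protein whose close paralog is RPL22L1, had 885, 862 and 888 CPM in DMSO, 797, 777 and 765 at 8 h and 702, 689 and 713 at 12 h. The log2 fold change was -0.02 at 4 h, where it did not pass the test, -0.17 at 8 h and -0.33 at 12 h (SE 0.03 each). RPL6 had 1613, 1455 and 1503 CPM in DMSO and 1216, 1226 and 1276 at 12 h, and changed by -0.30 on the log2 scale (SE 0.03). RPS15A fell by 0.22 and 0.23 on the log2 scale at 8 and 12 h (SE 0.05 each).

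Several of the best-known members moved little. RPS6 had 1891, 1737 and 1767 CPM in DMSO, 1983, 1880 and 1859 at 4 h, 1930, 1943 and 1858 at 8 h and 1737, 1678 and 1714 at 12 h. Its groups overlapped at 4 and 8 h, where the log2 fold change was 0.09 each time, and at 12 h it was -0.07 (SE 0.03, limma-voom adjusted p = 0.0311). The 12 h call of RPS6 ended with edgeR (adjusted p = 0.0662) and with DESeq2 (adjusted p = 0.105), and by limma-voom without DMSO replicate 1 or PBITE-1 12 h replicate 2 or 3 (0.282, 0.107 and 0.0603). The 4 h call ended without DMSO replicate 2 or 3 or PBITE-1 4 h replicate 1 (0.123, 0.0702 and 0.136), and the 8 h call without DMSO replicate 2 (0.0619). RPS6 was not called at 4 and 8 h with library size alone (0.298 and 0.452). RPL5 changed by 0.12 and 0.11 at 4 and 8 h and had a log2 fold change of -0.03 at 12 h (SE 0.03 each), when its groups overlapped. RPL5 was not called at 4 and 8 h with library size alone (0.0652 and 0.155), and with all 18 libraries in 1 fit it was called lower at 12 h (0.0431). RPL11 had log2 fold changes of 0.05 and 0.03 that did not pass the test at 4 and 8 h and fell by 0.12 at 12 h (SE 0.03).

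RPL3 changed by 0.17, 0.24 and 0.09 on the log2 scale at the 3 times (SE 0.03 each) and RPS27 by 0.13, 0.14 and 0.14 (SE 0.04 each). RPSA changed by 0.09 and 0.11 at 4 and 8 h and had -0.03 at 12 h, which did not pass the test. RPS19 had 0.09 at 4 h, not called, and changed by 0.18 and 0.11 at 8 and 12 h. RPL41 had 0.08 at 4 h, not called, rose by 0.14 at 8 h and fell by 0.13 at 12 h (SE 0.05 each). RPS27A had 0.06, 0.06 and -0.05 (SE 0.04 each), none of which passed the test. Several of these calls rested on 1 library by limma-voom. At 12 h the call of RPL3 was lost without DMSO replicate 2 or 3 (adjusted p = 0.0645 and 0.107), that of RPS19 without DMSO replicate 3 or PBITE-1 12 h replicate 1 (0.234 and 0.0746), and that of RPL41 without DMSO replicate 1 or PBITE-1 12 h replicate 1 (0.219 and 0.0782). At 4 h that of RPSA was lost without DMSO replicate 2 or 3 or PBITE-1 4 h replicate 1 (0.0601, 0.107 and 0.273), and at 8 h that of RPL41 without DMSO replicate 2 (0.18). With library size alone, RPS27 was not called at 4 and 8 h (0.0556 and 0.068), RPSA not at 4 and 8 h (0.288 and 0.26), RPL41 not at 8 h (0.143), and RPL3 and RPS19 not at 12 h (0.174 and 0.114). Calls were also gained: RPS19 at 4 h with the replicate block (0.0394), with at least 10 counts in every sample (0.0481), and without DMSO replicate 1 or PBITE-1 4 h replicate 3 (0.00523 and 0.0348). RPL41 was called higher at 4 h without DMSO replicate 1 or PBITE-1 4 h replicate 3 (0.0127 and 0.0439). RPS27A was called higher at 4 and 8 h without DMSO replicate 1 (0.0118 and 0.00972), and lower at 12 h with library size alone (0.0361), with all 18 libraries in 1 fit (0.0288) and without DMSO replicate 2 (0.0445).

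The 2 subunits were also counted apart. At 12 h 39.4% of all tested genes were higher and 39.4% lower. Of 31 small-subunit genes 13 were then higher and 7 lower, with a median log2 fold change of 0.05. Of 46 large-subunit genes 10 were higher and 23 lower, with a median of -0.08. At 8 h 24 small-subunit genes were higher and 3 lower, against 21 and 7 large-subunit genes. Of all tested genes 35.9% were higher and 37% lower at 8 h. The difference between subunits was not tested.

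Between 8 and 12 h the level went down. By limma-voom 57 members were lower at 12 h than at 8 h and 0 higher, where 32.5% of all tested genes were lower and 27.8% higher; at an unadjusted p under 0.05 the counts were 58 and 0. edgeR gave 52 lower and 0 higher and DESeq2 47 and 0, and in 55 members (71.4%) the 3 libraries at 12 h lay below the 3 at 8 h, as in 34.2% of all tested genes. The median log2 difference was -0.13, 40 of the 57 were large-subunit genes, and the largest falls were those of RPL41 (-0.27, SE 0.05), RPL35 (-0.24, SE 0.04) and RPL7A (-0.23, SE 0.03). RPL7A, a large-subunit gene that hosts 4 snoRNAs, had 1713, 1676 and 1641 CPM at 8 h and 1462, 1411 and 1430 at 12 h, with no overlap.

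Between 4 and 8 h there was no common direction. At 8 h 15 members were higher and 7 lower, where 26.7% of all tested genes were higher and 26.3% lower, with a median log2 difference of 0.02. The largest rises were those of RPS12 (0.23, SE 0.04), RPS20 (0.19, SE 0.03) and RPLP1 (0.19, SE 0.04), and the largest falls those of RPL22 (-0.15, SE 0.03), RPL26 (-0.15, SE 0.04) and RPL6 (-0.14, SE 0.03). RPL26, a large-subunit protein, had 805, 745 and 709 CPM at 4 h and 688, 668 and 681 CPM at 8 h. The count depends on 1 library: without PBITE-1 4 h replicate 1 it was 26 higher and 4 lower, and without replicate 3 it was 11 higher and 11 lower.

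The responses to doxycycline and to 12 h of PBITE-1 were compared directly in all 18 libraries, as the difference of the log2 fold changes. Of 77 members 76 had a higher response to PBITE-1 than to doxycycline and 0 a lower one by limma-voom, where 33.3% of all tested genes were higher and 35.1% lower. At an unadjusted p under 0.05 the counts were also 76 and 0, and edgeR and DESeq2 gave the same counts. The median difference was 0.65 on the log2 scale, and 1 member was not called. With library size alone the median difference was 0.39, and that of all tested genes -0.28. RPS12 (1.16, SE 0.05) and RPS2 (1.14, SE 0.05) passed a difference of 1, as did 13% of all tested genes, and RPLP1 had 0.99 (SE 0.05). RPS26 had the smallest called difference, 0.20 (SE 0.05). The 2 experiments used different cell lines and treatments of unknown against known duration, which cannot be told apart from the agents.

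**Figure D4:**
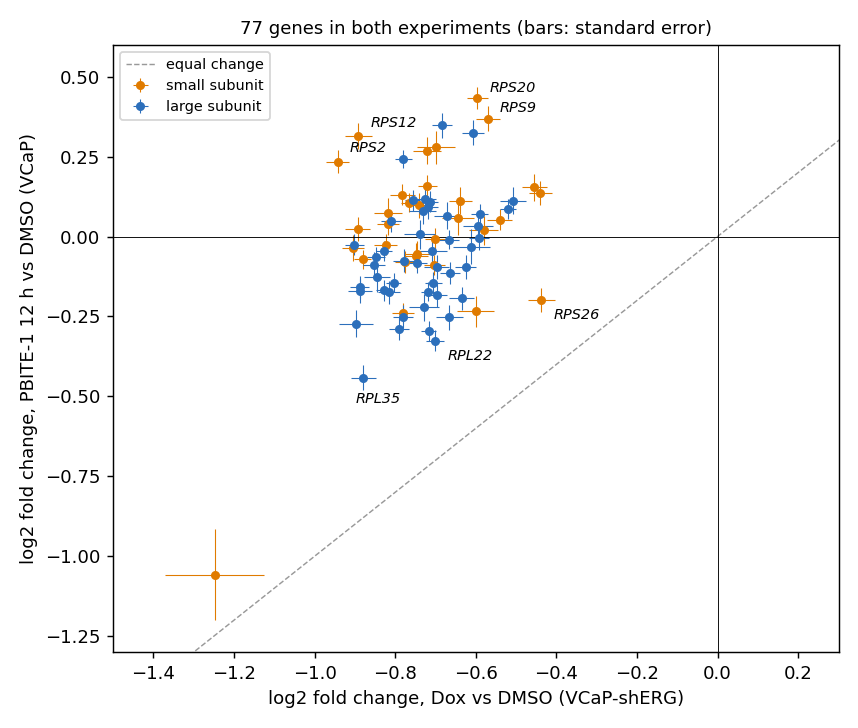
Log2 fold change of each member with doxycycline in VCaP-shERG cells (x axis) and after 12 h of PBITE-1 in VCaP cells (y axis), with standard errors as bars and equal change as the dashed line. All 77 genes lie left of 0 and all lie above the dashed line, by a median of 0.69 in these separate fits.

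Across the 77 members the 2 sets of log2 fold changes had a Pearson r of 0.43 and a Spearman rho of 0.26, and with 1 member of low counts left out an r of 0.24. These are descriptions across genes, which share libraries and are not independent replicates.

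Genes near the family in function were counted from lists, for comparison. Of the 23 other TOP translation genes all 23 were lower with doxycycline (median log2 fold change -0.67), where 35.3% of all tested genes were. After PBITE-1 12 were higher and 0 lower at 4 h, 12 and 6 at 8 h and 8 and 11 at 12 h. Among all tested genes 26.4% were higher and 24.7% lower at 4 h, 35.9% and 37% at 8 h, and 39.4% each at 12 h. The medians of the list were 0.10, 0.14 and -0.06. At 12 h the list spanned -0.83 to 0.49. EEF2, the elongation factor of translocation, fell by 0.53 with doxycycline and rose by 0.49 at 12 h on the log2 scale (SE 0.02 and 0.03). NPM1, the nucleolar chaperone nucleophosmin, had a log2 fold change of -1.38 with doxycycline (SE 0.03) and -0.17 at 12 h (SE 0.04). The response to PBITE-1 was higher than that to doxycycline in 22 of the 23 and lower in 0. Among all tested genes 33.3% were higher and 35.1% lower.

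The 77 mitochondrial ribosomal protein genes, which encode the separate ribosome of that organelle, fell in both experiments. With doxycycline 67 were lower and 0 higher, with a median log2 fold change of -0.64, where 35.3% and 35.1% of all tested genes were. After PBITE-1 45, 64 and 67 were lower and 2, 4 and 4 higher at 4, 8 and 12 h. The medians were -0.23, -0.59 and -0.70. Among all tested genes 24.7%, 37% and 39.4% were lower and 26.4%, 35.9% and 39.4% higher at these times. MRPL24 changed by -2.29 at 12 h (SE 0.12), and MRPL10 rose by 0.91 (SE 0.08). In the direct comparison of responses 34 mitochondrial genes were lower with PBITE-1 and 13 higher, against 0 and 76 of the cytosolic ones. Among all tested genes 35.1% were lower and 33.3% higher in that comparison.

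Most genes of RNA polymerase I and ribosomal RNA processing fell in both experiments. Of 38, 36 were lower and 0 higher with doxycycline (median log2 fold change -1.15), where 35.3% and 35.1% of all tested genes were. After PBITE-1 27, 31 and 34 were lower and 3, 3 and 2 higher at 4, 8 and 12 h (medians -0.22, -0.68 and -1.20). Among all tested genes 24.7%, 37% and 39.4% were lower and 26.4%, 35.9% and 39.4% higher at these times. RRS1, which brings RPL5, RPL11 and 5S RNA to the assembling large subunit, averaged 33.3 ± 3.4 CPM in DMSO and 3.82 ± 0.36 CPM at 12 h (SD, n = 3), a log2 fold change of -3.10 (SE 0.16, limma-voom adjusted p = 5.3e-20). DKC1, the pseudouridine synthase of the H/ACA snoRNPs, changed by -1.72 with doxycycline (SE 0.04).

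Of 19 chaperones and importers of ribosomal proteins, 19 were lower with doxycycline, and 16 were lower and 2 higher at 12 h of PBITE-1. The median log2 fold changes were -0.69 and -0.72. Among all tested genes 35.3% were lower with doxycycline, and 39.4% were lower and 39.4% higher at 12 h. LTV1, an assembly factor of the small subunit, went from 52.5 ± 2.1 CPM in DMSO to 11.7 ± 1.3 at 8 h (SD, n = 3). GRWD1, a chaperone of RPL3, changed by -1.20 with doxycycline and -1.41 at 12 h (SE 0.07 each). IPO7, which imports ribosomal proteins into the nucleus, fell by 0.82 with doxycycline and rose by 0.23 at 12 h (SE 0.03 each).

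The 22 genes that regulate TOP mRNAs went in both directions. With doxycycline 13 were lower and 5 higher, where 35.3% and 35.1% of all tested genes were. At 12 h 10 were lower and 9 higher, near the 39.4% each of all tested genes. LARP1, the TOP-binding protein, averaged 814 ± 7.8 CPM in DMSO, 690 ± 9.4 after 4 h of PBITE-1, 521 ± 8.4 after 8 h and 359 ± 2.4 after 12 h (SD, n = 3). With doxycycline it changed by -0.68 on the log2 scale (SE 0.03). CNBP, which also binds TOP mRNAs, changed by -0.82 with doxycycline (SE 0.03) and -1.10 at 12 h (SE 0.04). EIF4EBP1, the translation repressor under mTOR control, changed by -1.29 with doxycycline (SE 0.09) and 0.21 at 12 h (SE 0.07). Of 12 tested genes of ribosome stress and MDM2, 7 were lower and 2 higher with doxycycline and 7 and 3 at 12 h. The shares of all tested genes are those given above for the TOP regulators.

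Of 8 listed paralogs of ribosomal proteins 6 were measured. RPL22L1 averaged 29 ± 3.5 CPM in DMSO, 49.1 ± 1.7 after 4 h of PBITE-1, 39.8 ± 1.8 after 8 h and 12.0 ± 0.34 after 12 h (SD, n = 3), so it was above DMSO at 4 h and below it at 12 h (log2 fold changes 0.77, SE 0.07, and -1.27, SE 0.10). RPL3L, the striated-muscle paralog of RPL3, had 2, 0 and 1 counts in DMSO, 23, 21 and 24 at 4 h, 68, 41 and 37 at 8 h and 39, 52 and 57 at 12 h. It had at most 1 count in any VCaP-shERG library, and no fold is given because the DMSO counts are under 3. RPL7L1 changed by -1.07 at 12 h (SE 0.04) and RPL36AL by 0.20 (SE 0.05).

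A set of short motifs was searched on both strands of the 300-base promoters (250 bases before and 50 after the start). CCGGAAG, a core of the ETS family to which ERG belongs, was in 21 of 62 member promoters (33.9%) and in 10.7% of all promoters. All promoters were not limited to expressed genes. On the other strand the motif reads CTTCCGG, which can overlap the pyrimidine run at the start, as in RPL29 and RPL34. The excess is therefore not separate from that run. AAGATGG, a core of YY1 sites, was in 12.9% and 6.06%, the E-box CACGTG in 4.84% and 7.43%, and TATAAA in 8.06% and 12.0%. Members with CCGGAAG had a median log2 fold change of -0.75 with doxycycline and those without it -0.70, and at 12 h the medians were -0.05 and -0.01. A match is a description of the letters and not of binding.

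Within the family, members with more GC in their mRNA tended to lie higher at 8 and 12 h of PBITE-1. Across 76 members, the one of low counts left out, the Spearman rho between GC content and the log2 difference was 0.53 for 8 h against 4 h, 0.43 for 8 h against DMSO and 0.45 for 12 h against DMSO. For 13391 other genes the same values were -0.01, -0.04 and -0.07. At 4 h against DMSO rho was 0.098 among the members and -0.060 among the other genes. With doxycycline rho was 0.25 among the members. These are descriptions across genes that share libraries, and the part of base composition in the counting was not tested.

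**Figure D5:**
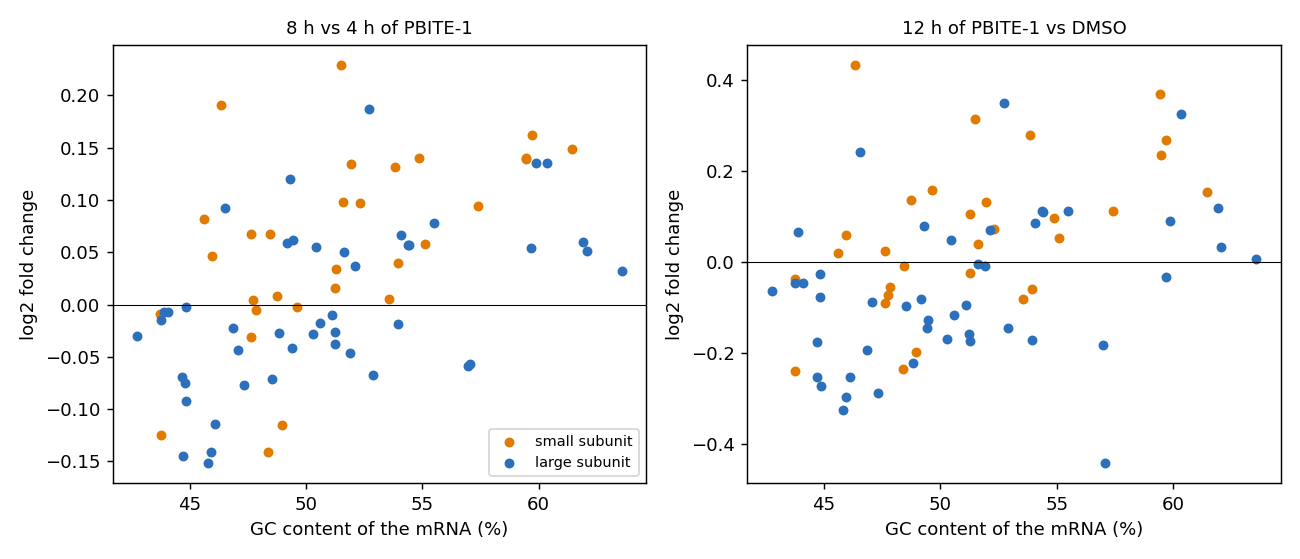
GC content of each member's mRNA (x axis, %) against its log2 fold change (y axis) for 8 h against 4 h and for 12 h of PBITE-1 against DMSO, 76 genes, small subunit in orange and large in blue. Points tend to lie higher to the right, with Spearman rho of 0.53 and 0.45.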

How the data were processed

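Total RNA of 18 samples was depleted of ribosomal RNA (KAPA RiboErase) and sequenced as paired-end 150-base reads. The authors deposited 1 table of whole-number read counts per gene, with no normalization. The study's methods name Kallisto for quantification and the submitters' processing notes name STAR, featureCounts and hg38; which of them made the table, the annotation and the strand setting are not given in the sources used here. Gene IDs were matched to symbols for 22011 of 22034 rows.

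Genes kept by filterByExpr over the 6 groups (14164) were scaled by TMM and fitted with limma-voom (limma 3.58.1, edgeR 4.0.16, R 4.3.3), the 6 VCaP-shERG libraries alone, the 12 others together, and all 18 for the difference of responses. P-values were adjusted by Benjamini-Hochberg over all 14164 genes, and a gene was called at an adjusted p under 0.05. CPM were scaled by TMM within each experiment and are not comparable between the 2. DESeq2 1.42.0, edgeR's quasi-likelihood test, other scalings and filters, a replicate block and leaving out each library in turn served as alternatives. On simulated data, 200 of 200 genes changed by a log2 fold of 2 were recovered in the 12 h comparison among 14164 genes. Recovery also required a log2 fold change past 1, which the calls above did not. Smaller changes were not simulated. The labels number 3 samples per group; the study describes the PBITE-1 samples as biological replicates, and for the other groups p-values may measure technical spread only.

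Members and lists were chosen with earlier results of these data known. Named members were 11 fixed genes, and in each comparison the 3 most negative and 3 most positive called members; of each other list at most 2 in each direction were eligible. Of the members so named, 2 are not reported here and enter counts and medians only. Gene lengths and GC content came from GENCODE v29, promoters from RefSeq. Both length and GC content were those of each gene's shortest protein-coding transcript with a principal coding length. Other transcripts can differ. A list of snoRNA host transcripts is not analysed here.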

Additional observations from a re-analysis of the deposited data

Results flagged for a closer look

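Listed here are numbers of members called by limma-voom, gene by gene, for a difference between times or experiments. The counts themselves were not tested. At 8 h against 4 h of PBITE-1, 7 members were lower and 15 higher, 9.09% and 19.5% of the 77, where 26.3% and 26.7% of all tested genes were. The lower count was 12 or 13 under a replicate block, with library size alone or with only the groups compared. At 12 h against 8 h, 57 members were lower (74.0%), where 32.5% of all tested genes were. Between the responses to 12 h of PBITE-1 and to doxycycline, 76 members differed, all with the higher value after PBITE-1, where 33.3% of all tested genes were called higher. The difference in cell line and in duration cannot be told apart from the agent in the last comparison.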

How the results depend on the processing

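All 77 members were called lower with doxycycline under every alternative tried on the 77, and the median log2 fold change moved to -0.46 with library size alone. With library size alone the counts after PBITE-1 were 5 lower and 19 higher at 4 h and 15 higher at 12 h, 13 were lower at 8 h than at 4 h with a median of -0.0019, and the summed CPM of the members had log2 ratios of -0.48 with doxycycline and 0.045 at 8 h. Of the differences between responses, 72 stayed called higher with library size alone, RPL22 not among them (adjusted p = 0.0984). With upper-quartile scaling, and with all 18 libraries in 1 fit, 4 members were lower at 4 h. With only the groups compared in the fit 13 were lower at 8 h than at 4 h and 2 higher at 12 h than at 8 h. The log2 ratio of summed CPM at 12 h turned to 0.0015 with RLE scaling. With 1 member of low counts left out, an alternative chosen after seeing the data, 1 member was lower at 4 h. The cause of these shifts was not tested.

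Leaving out each library in turn gave 2 to 4 lower and 25 to 48 higher members at 4 h. At 8 h against 4 h it gave 4 to 11 lower and 11 to 26 higher. Medians ran from -0.050 to 0.0028 at 12 h and from -0.0049 to 0.052 at 8 h against 4 h. Log2 ratios of summed CPM at 12 h ran from -0.025 to 0.023. Replicate numbers did not pair the samples (21 correlations of deviations between -0.023 and 0.041). With the replicate block 12 members were lower at 8 h than at 4 h in place of 7, and no other count of members moved by over 1.5 times; each sample correlated best with its own number in 16 of 42 cases.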
